A study of Drosophila melanogaster with 46 samples.

Results

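Among the genes of Drosophila melanogaster annotated with no protein product, 2463 carried a symbol made of CR followed only by digits, in an expression table of 17490 genes from the larval central nervous system (CNS). The 80 described here were selected on their level, a mean of at least 5 RPKM (reads scaled to the length of the exons and to the mapped reads of the library) over 8 RNA-seq libraries. They made up 3.25% of the CR-named genes, so that their being well expressed is a matter of choice and not a result. The members just inside this limit were CR46003, CR45548 and CR43971, with means of 5.77, 5.67 and 5.17 RPKM, and the CR-named genes just outside it were CR45755, CR45504 and CR45732, with means of 4.77, 4.63 and 4.6 RPKM. Of the other CR-named genes, 732 were listed at 0 in all 8 libraries, 1355 were above 0 with a mean under 0.5 RPKM, and 296 had a mean of at least 0.5 RPKM. The current annotation classes the 80 as 40 long noncoding RNAs (lncRNAs), 36 pseudogenes, 2 hairpin RNAs (CR18854 and CR32207) and 2 antisense RNAs (CR44029 and CR43971).

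A lncRNA is a transcript that, much like a messenger RNA, is usually capped, spliced and polyadenylated, but holds no long reading frame, and some lncRNAs act in chromatin, in RNA localization or by the act of their own transcription. A pseudogene is a copy of a gene that lost its ability to make the protein, either through reverse transcription of a spliced RNA or through duplication of the gene, and it may still be transcribed from its own or a neighboring promoter. Hairpin RNAs of flies fold back on themselves and are cut by Dicer-2 into small interfering RNAs that are loaded on AGO2. Because a pseudogene can hold long runs identical to the gene it came from, a read from such a run cannot be given to one or the other by its sequence.

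The libraries were made from polyadenylated RNA of pooled CNS dissected from larvae of the third instar, 4 from wild type (w1118) and 4 from Tet CD, and values listed for a group below follow replicates 1 to 4. TET is the fly homolog of the ten-eleven translocation enzymes, and the Tet CD (catalytic dead) allele carries a double point mutation in the iron binding motif that its catalytic activity needs, in a strain given as Tet CD-GFP whose flies are viable. The comparison of the groups asks which transcripts change when the protein is present without its activity. Both alleles came with their own strain, so the mutation, the GFP tag and the rest of the strain's genome cannot be told apart. No RNA-seq library of the tagged protein without the mutation is among the samples. The labels do not say that the libraries of a group came from separate sets of animals, so p-values measure the spread between these libraries, which may be technical. Tet null was not analysed here.

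The values held 17500000 to 32600000 reads per wild-type library and 17900000 to 19300000 per Tet CD library, as read from the steps between low values. Tet, which still makes a transcript in the mutant, had 76.4, 81.8, 88.8 and 83.4 RPKM in wild type against 81, 28.3, 39.2 and 72.4 RPKM in Tet CD, where replicates 2 and 3 stood apart. Genes with at least 4145 bases of exon were also low in those libraries, where their median log2 ratio to the mean of wild type was −0.32 in replicate 2 and −0.12 in replicate 3, against 0.01 and 0.03 in replicates 1 and 4. The tissue label was borne by its markers: 6 neuron genes summed to 382 to 434 RPKM in wild type against 247 to 378 RPKM in Tet CD, 5 glia genes to 268 to 308 and 298 to 355 RPKM, and 5 neuroblast genes to 135 to 163 and 144 to 159 RPKM. Marker genes of the ring gland, which is attached to the larval brain, were abundant and varied widely, from 169 to 375 RPKM summed in wild type and from 189 to 323 RPKM in Tet CD. Those of the other tissues listed were lower. Without overlap between the groups, Tet CD was higher in the sums of the trachea (42.2 to 87.1 against 93.4 to 154 RPKM) and of the eye disc (15.4 to 25.9 against 28.5 to 39.3 RPKM). It was lower without overlap in the neuron sums given above. Single genes differed from their lists, since mean trh was lower (6.16 against 5.3 RPKM) and mean Gad1 was not (29.2 against 30.5 RPKM). Hemocyte sums overlapped, although NimC1, a low gene, was higher without overlap (means of 0.0916 against 0.792 RPKM), while Pxn was slightly lower (11.9 against 10.9 RPKM). The part of these differences in the results that follow was not tested. Fewer cells of a type and less RNA per cell cannot be told apart in such bulk samples.

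The sequences below carry the largest rise and show what limits the values of copied genes. CR40469 (FBgn0058469) is a single exon of 214 bases at chrX:122493-122706 on the plus strand. It aligned over its whole length, at 99.1% identity, with lncRNA:CR34335 at chrX:3545862-3546074 on the minus strand, a gene not analysed here. Their sequences (5′ to 3′, from RefSeq's Release 6 genome, which is the same assembly as dm6) differ by the substitution A207T, counted from 1 at the 5′ end of CR40469, and by 1 base that CR40469 has in addition, both in capitals.
CR40469: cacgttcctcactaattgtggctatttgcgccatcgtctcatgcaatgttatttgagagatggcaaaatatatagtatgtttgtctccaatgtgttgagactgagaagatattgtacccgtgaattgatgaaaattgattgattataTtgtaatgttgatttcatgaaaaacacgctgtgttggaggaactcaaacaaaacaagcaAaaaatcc
lncRNA:CR34335: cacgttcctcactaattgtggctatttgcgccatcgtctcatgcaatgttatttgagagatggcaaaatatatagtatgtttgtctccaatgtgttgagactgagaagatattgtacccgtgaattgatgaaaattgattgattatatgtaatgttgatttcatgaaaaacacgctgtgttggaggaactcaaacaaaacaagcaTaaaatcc
A read that crosses neither of these places matches both genes.

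CR44383 (FBgn0265533), a pseudogene of 1 exon at chrX:15796477-15796897 on the plus strand, resembles Rhp, which lies upstream on the same strand. The stretch shown is chrX:15796579-15796693 with its counterpart in an exon of Rhp at chrX:15792289-15792403, which share 96.5% of 115 bases. Capitals mark the 4 substitutions T112C, A152G, T166C and C179A, counted from 1 at the 5′ end of CR44383.
CR44383: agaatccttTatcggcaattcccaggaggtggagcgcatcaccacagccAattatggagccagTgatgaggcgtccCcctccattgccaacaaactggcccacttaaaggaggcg
Rhp: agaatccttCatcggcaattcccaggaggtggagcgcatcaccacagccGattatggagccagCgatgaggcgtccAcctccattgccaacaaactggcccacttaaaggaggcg
These differences tell the genes apart wherever a read crosses them.

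The largest family among the members is made of 7 copies of nod, a gene for a kinesin-like protein known for holding chromosomes on the meiotic spindle. The copies, CR43211 to CR43217, lie in tandem on the plus strand between chrX:11586228 and chrX:11599638, next to nod itself. Their exons have 4 distinct sequences: those of CR43211, CR43213 and CR43216 are identical, as are those of CR43214 and CR43215. The window shown is chrX:11598977-11599064 in CR43211, which all 7 copies hold unchanged, and chrX:11585034-11585133 in nod, chosen as the place where they differ most, with the differing bases in capitals.
CR43211: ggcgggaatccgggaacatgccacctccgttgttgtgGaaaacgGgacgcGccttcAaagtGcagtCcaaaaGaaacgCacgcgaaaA
nod: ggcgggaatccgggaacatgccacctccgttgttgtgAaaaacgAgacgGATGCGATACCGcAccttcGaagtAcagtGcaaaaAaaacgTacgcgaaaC
Over the 654 bases that align, CR43211 and nod were 92.6% identical, so reads of nod can be told from those of its copies, whereas exon reads of the identical copies cannot be told from each other.

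Since the libraries were made from polyadenylated RNA, the 3′ ends of the lncRNAs were searched for the signals AATAAA and ATTAAA within the last 50 bases of the joined exons, on the strand of the gene. Of the 80 members, 39 (48.8%) held one of them, against 662 of 2375 other CR-named genes (27.9%) and 8835 of 13667 protein-coding genes (64.6%). Among the lncRNAs 21 of 40 did (52.5%) and among the pseudogenes 16 of 36 (44.4%). These 16 include the nod copies CR43211 to CR43216, which all hold ATTAAA and are near-identical in sequence, so they are not separate cases. On the other strand the share was 8.8% of members. Of the 9 members that differed between the groups (below), 2 held a signal, and both are lncRNAs that fell. The last 60 bases of these and of other lncRNAs that differed are shown, with the signal in capitals (CR31781 at chr2L:16878241-16878300, CR43242 at chr2L:23070665-23070724 and CR42861 at chrX:13745417-13745476 on the plus strand, and CR43264 at chrX:5831898-5831957 on the minus strand).
CR31781: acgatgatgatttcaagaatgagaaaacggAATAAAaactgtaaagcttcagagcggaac
CR43242: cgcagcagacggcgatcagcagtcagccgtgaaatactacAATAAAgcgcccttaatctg
CR42861: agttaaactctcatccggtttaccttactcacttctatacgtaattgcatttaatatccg
CR43264: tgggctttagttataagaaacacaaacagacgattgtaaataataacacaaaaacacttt
A match is a description of the letters and no measure of where these RNAs end.

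The members spanned 5.17 to 729 RPKM, with a median of 11.2 RPKM. Means under 10 RPKM were found for 36 of them, 17 lay from 10 to 20 RPKM, 20 from 20 to 50 RPKM, 2 from 50 to 100 RPKM and 5 above 100 RPKM. The 3 highest, CR43482, CR42862 and CR40469, held 47.5% of the summed level of all 80, and all 80 together held 0.528 to 0.635% of the summed RPKM in the wild-type libraries and 0.546 to 0.727% in the Tet CD libraries. Medians were close between the classes, at 11.1 RPKM for lncRNAs and 11 RPKM for pseudogenes. Whole reads could be worked out for 73 of the 80, and over these the lowest library of a member held a median of 193 reads.

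**Figure D1:**
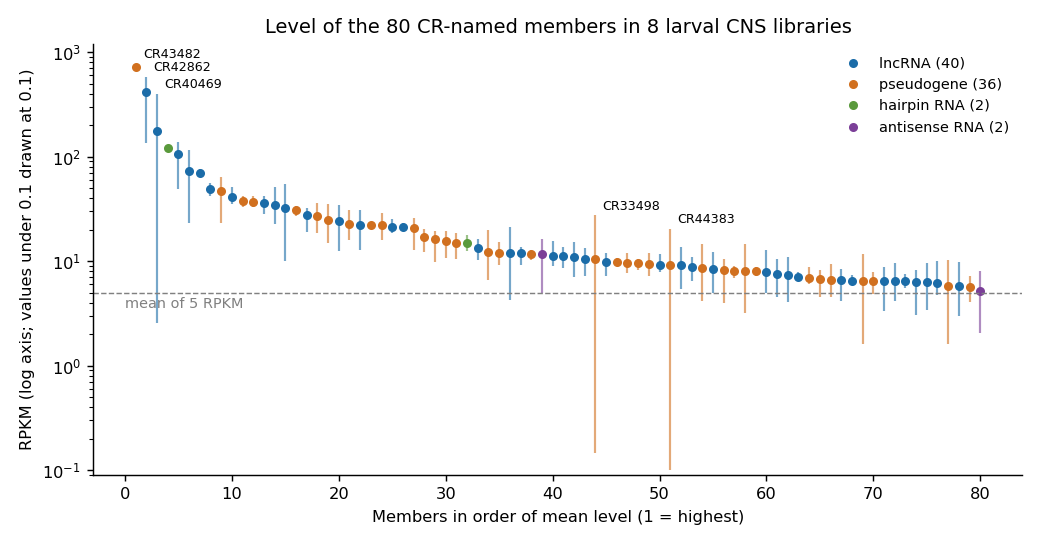
Level of each of the 80 members in RPKM on a log axis, in order of the mean, with the mean as a point, the lowest to highest of the 8 libraries as a line and the annotation class as color. Levels fall from 729 to 5.17 RPKM, and the lines of CR40469, CR44383 and CR33498 are the ones that run over more than a factor of 50.

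The CR43482 pseudogene was the highest member. It is a 352-base copy of a stretch of Hsp27, a small heat shock protein, to which it is identical at every base, and Hsp27 itself stood at 1791 ± 55.8 RPKM in wild type against 1592 ± 167 RPKM in Tet CD (SD, n = 4). CR43482 was listed at 699, 747, 753 and 737 RPKM in wild type against 737, 774, 692 and 690 RPKM in Tet CD, so the groups overlapped (log2 fold change −0.02 with a standard error, SE, of 0.06). How the counting dealt with reads that match both places is not given in the sources used here, and its level is therefore uncertain.

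The CR42862 lncRNA, with 5485 bases of exon on 3L, was next. It varied widely between libraries, from 583, 542, 402 and 312 RPKM in wild type to 541, 136, 295 and 481 RPKM in Tet CD. It shares 246 bases of exon with CG33229 on the same strand. The log2 fold change of −0.48 had a standard error of 0.40.

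The hairpin RNA CR18854 was the steadiest of the abundant members, at 122, 126, 124 and 123 RPKM in wild type against 110, 124, 121 and 117 RPKM in Tet CD. Of its exon bases 39.7% overlap IP3K1 on the other strand. It resembled CG8289 over 866 bases at 78.6% identity, and CG8289 stood at 150 ± 8.16 and 155 ± 10.6 RPKM (SD, n = 4) in wild type and Tet CD. The other hairpin RNA, CR32207, had 13.6 ± 0.776 RPKM in wild type against 16 ± 1.92 RPKM in Tet CD (SD, n = 4) and did not pass the test.

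Of the other lncRNAs among the 10 highest members, CR42491, CR44272 and CR30009 overlapped between the groups, while CR31451 and CR43283 did not and are described further on. CR42491, which shares 377 of its exon bases with the ribosomal protein gene RpL22 on the same strand, had 65.7 to 76.8 RPKM in wild type against 64.8 to 72.3 RPKM in Tet CD. CR44272 had 41.8 to 52.4 RPKM and 41.7 to 56.4 RPKM, and CR30009 had 35.6 to 48.5 RPKM and 36.6 to 51 RPKM. For these lncRNAs the log2 fold changes were −0.01, 0.08 and −0.04, each within its standard error of 0.06, 0.10 and 0.12.

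Between Tet CD and wild type, 7 members were higher and 2 lower by limma. Only the thresholds are those of the study, a Benjamini-Hochberg adjusted p below 0.01, here over all 9357 genes tested, with a fold change above 1.2. The paper itself tested differences with DESeq2, so the calls given here are not its own. It reported more genes in each direction than the 109 higher and 126 lower found here. The members called make up 8.75% and 2.5% of the 80, beside 1.16% of all genes tested called higher and 1.35% called lower. Among all 7133 genes tested that averaged at least 5 RPKM these shares were 0.995% and 1.07%, and among the other 296 CR-named genes tested 0.676% and 3.04%. The median log2 fold change was −0.02 over the members and −0.01 over all genes tested. An unadjusted p below 0.05 from limma was found for 34 members (42.5%), against 28.3% of all genes tested. All 80 entered the fit, since the level rule lies above its filter of a mean of at least 0.5 RPKM. The level rule itself let in 6 members through 1 group alone: CR40469, CR44383 and CR42653 had a wild-type mean under 5 RPKM, and CR43242, CR14578 and CR43971 a Tet CD mean under 5 RPKM. Among the 74 with at least 5 RPKM in both group means, 4 were higher and 1 lower. With array weights, which rest mostly on replicate 3 within Tet CD, 14 members were higher and 14 lower, so that rises did not outnumber falls. Leaving out Tet CD replicate 1 gave 3 falls, and leaving out wild-type replicate 1, 2 or 3 gave 1.

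**Figure D2:**
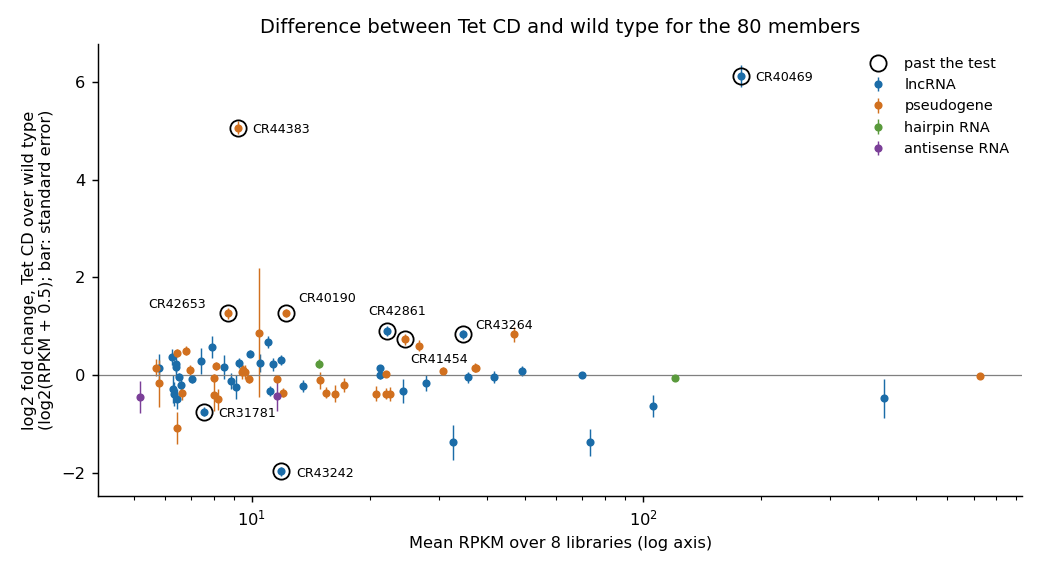
Log2 fold change between Tet CD and wild type (log2(RPKM + 0.5) scale, with its standard error) against mean level in RPKM on a log axis for the 80 members, colored by class. The 9 members past the test are ringed, and CR40469 (6.13) and CR44383 (5.07) stand far above the rest.

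Counted by overlap between the groups, 15 members (18.8%) were higher in every Tet CD library than in any wild-type library, and 6 (7.5%) were lower in all of them. Over all genes tested these shares were 9.35% and 9.42%. Among the 74 members with at least 5 RPKM in both group means, 12 (16.2%) were higher and 4 (5.41%) lower in this way. By class, 3 of 40 lncRNAs rose by limma and 2 fell, while 4 of 36 pseudogenes rose and none fell. Over all genes tested 1.16% rose and 1.35% fell. The class counts rest in part on the level rule, which let in CR40469, CR44383, CR42653 and CR43242 only through the group where each is higher. The pseudogenes CR40190 and CR42653 resemble each other and are not separate cases. These counts therefore cannot show a difference between the classes. None of the 9 shares exon bases with another gene, whereas 22 of the 80 members do.

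The CR40469 lncRNA, whose exon is printed above, rose the most. It was at 6.95, 5.31, 4.16 and 2.58 RPKM in wild type, from 26, 37, 23 and 12 reads, and at 345, 401, 369 and 291 RPKM in Tet CD, from 1321, 1658, 1455 and 1189 reads. Every Tet CD library was thus far above every wild-type library, with a mean 74-fold higher and a log2 fold change of 6.13 (SE 0.23, limma adjusted p = 1.01e-06). It is a low member in wild type and the third highest member only through Tet CD. The nearest protein-coding gene, CG17636, lies 1663 bases away on the other strand and had mean RPKM of 0.00377 in wild type and 0.0259 in Tet CD, too low to be tested.

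The CR44383 pseudogene was nearly silent in wild type, with 1, 0, 0 and 1 reads, and had 154, 151, 147 and 123 reads in Tet CD, or 20.4, 18.6, 19 and 15.3 RPKM. Summed over libraries and scaled to the reads sequenced, 575 against 2 reads gave a ratio of 375 with an exact 95% interval of 103 to 3108, which covers counting error only. The log2 fold change of 5.07 (SE 0.14, limma adjusted p = 1.54e-07) depends on the amount added before taking logs. Its 3′ end lies 10 bases from that of sordd2 (CG32581 in the table), which runs toward it on the other strand. That gene also rose, from 19.4, 19.8, 19.7 and 20.4 RPKM in wild type to 52.8, 58.5, 60 and 60.8 RPKM in Tet CD (fitted log2 fold change 1.53 with SE 0.06, limma adjusted p = 1.01e-06). The use of strand in counting is not given in the sources used here, so reads that run past either end cannot be told apart between this pair. Rhp, whose exon CR44383 resembles, had 7.44 ± 0.907 and 9.32 ± 1.96 RPKM (SD, n = 4) in wild type and Tet CD and did not pass the test.

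Both CR42861 and CR43264 are single-exon lncRNAs of the X chromosome that rose by less than a factor of 2. CR42861 was at 12.7, 15.3, 14.9 and 18.5 RPKM in wild type against 30, 30.7, 26.3 and 28.4 RPKM in Tet CD (fitted log2 fold change 0.90 with SE 0.11, limma adjusted p = 0.00104). Its 3′ end is 100 bases from that of Pdcd4, a regulator of translation on the other strand, which stood at 219 to 238 RPKM in wild type against 219 to 254 RPKM in Tet CD. CR43264 was at 23.9, 23.9, 28.4 and 22.7 RPKM in wild type against 41.8, 50.9, 44.6 and 40.3 RPKM in Tet CD (fitted log2 fold change 0.83 with SE 0.09, limma adjusted p = 0.000673). It lies within an intron of CG15765, on the other strand, and CG15765 had 51 ± 2.79 RPKM in wild type against 46.6 ± 6.35 RPKM in Tet CD (SD, n = 4). For both lncRNAs the groups did not overlap, while the neighbors overlapped and did not pass the test.

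Since 4 of the 7 members that rose lie on the X chromosome, the RNAs of male dosage compensation were read beside them. The summed level of roX1, roX2 and msl-2 was 149 to 289 RPKM in wild type against 171 to 261 RPKM in Tet CD, so that the groups overlapped. By position, 26.2% of the members lie on the X chromosome, against 13.5% of the CR-named genes and 15.1% of all genes, and 7.5% on chromosome 4, against 1.14% and 0.639%. Of the 21 members on X, 4 rose and none fell (median log2 fold change −0.01), where 1.75% of all genes tested on X rose and 1.17% fell. CR40469 and CR44383 are members only through Tet CD, and of the 19 on X with at least 5 RPKM in both group means 2 rose. None of the 6 on chromosome 4 passed the test.

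The pseudogenes CR40190 and CR42653 sit next to each other in the pericentric part of chromosome arm 2R, at chr2R:1211067-1213666 and chr2R:1207416-1209312, and rose together. CR40190 was at 7.09, 6.89, 6.64 and 7.12 RPKM in wild type against 20, 16.1, 16.7 and 17.1 RPKM in Tet CD, a mean 2.52-fold higher (log2 fold change 1.27 with SE 0.08, limma adjusted p = 2.15e-05). CR42653 was at 5.25, 5.12, 4.13 and 5.08 RPKM in wild type against 14.7, 12.2, 10 and 12.9 RPKM in Tet CD, a mean 2.55-fold higher (log2 fold change 1.26 with SE 0.12, limma adjusted p = 0.000366). They aligned with each other over 1441 positions at 94.5% identity, with 4 substitutions and 75 gap positions. Copies at 95% identity or more were found at 11 and 8 places elsewhere, which can include the other of this pair. Their values are therefore not independent of each other. Both also hold part of rl, the ERK-type MAP kinase gene, and rl itself had 53 ± 3.56 RPKM in wild type against 46.5 ± 3.29 RPKM in Tet CD (SD, n = 4, log2 fold change −0.19, adjusted p = 0.117 from limma).

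The CR41454 pseudogene (chr3L:23136623-23138271) rose from 17.9, 20.7, 14.9 and 20.2 RPKM in wild type to 34.9, 27, 31.4 and 29.7 RPKM in Tet CD (fitted log2 fold change 0.73 with SE 0.11, limma adjusted p = 0.00537). Its 1058 exon bases are identical to part of CG33217, 4413 bases upstream, so that a read from these bases cannot be given to one or the other by its sequence. CG33217 was at 31.4, 29.3, 29.2 and 26 RPKM in wild type against 41.1, 31.1, 35.3 and 39 RPKM in Tet CD (fitted log2 fold change 0.33 with SE 0.09, limma adjusted p = 0.0588). The call for CR41454 was lost without Tet CD replicate 1 (adjusted p = 0.015) or 3 (0.0232), or without wild-type replicate 1 (0.0224), 3 (0.0103) or 4 (0.0114), and also with no filter on low values (0.011), after removing the exon-length trend (0.0103) or with the replicate number as a block (0.0246). The log2 fold change stayed between 0.63 and 0.79 over all alternatives.

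Both members that fell are lncRNAs of arm 2L. CR43242 (chr2L:23069005-23070724) was at 18.3, 19.3, 21.4 and 18.1 RPKM in wild type against 5.38, 4.27, 4.38 and 4.22 RPKM in Tet CD, which leaves a wide gap between the groups, with a wild-type mean 4.22-fold higher (log2 fold change −1.97 with SE 0.09, limma adjusted p = 4.28e-06). The nearest protein-coding gene, the splicing factor Spf45, starts 618 bases away on the other strand and had 57.1 ± 1.65 and 60.4 ± 3.26 RPKM (SD, n = 4) in wild type and Tet CD. Like CR40190 and CR42653, which rose, CR43242 resembles rl, over 179 bases at 80.4% identity. CR31781 (chr2L:16869346-16878300) was at 10.5, 9.41, 9.26 and 8.98 RPKM in wild type against 4.57, 5.47, 5.8 and 6.17 RPKM in Tet CD (fitted log2 fold change −0.75 with SE 0.10, limma adjusted p = 0.00237). The groups did not overlap, but the call was lost without wild-type replicate 1 (adjusted p = 0.0114), 2 (0.0118) or 3 (0.0103), or with the replicate number as a block (0.0213), while the log2 fold change stayed between −0.80 and −0.67 over all alternatives. CG32832, which lies 25 bases away on the other strand, was listed at 0 in every wild-type library and at no more than 0.0703 RPKM in Tet CD.

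**Figure D3:**
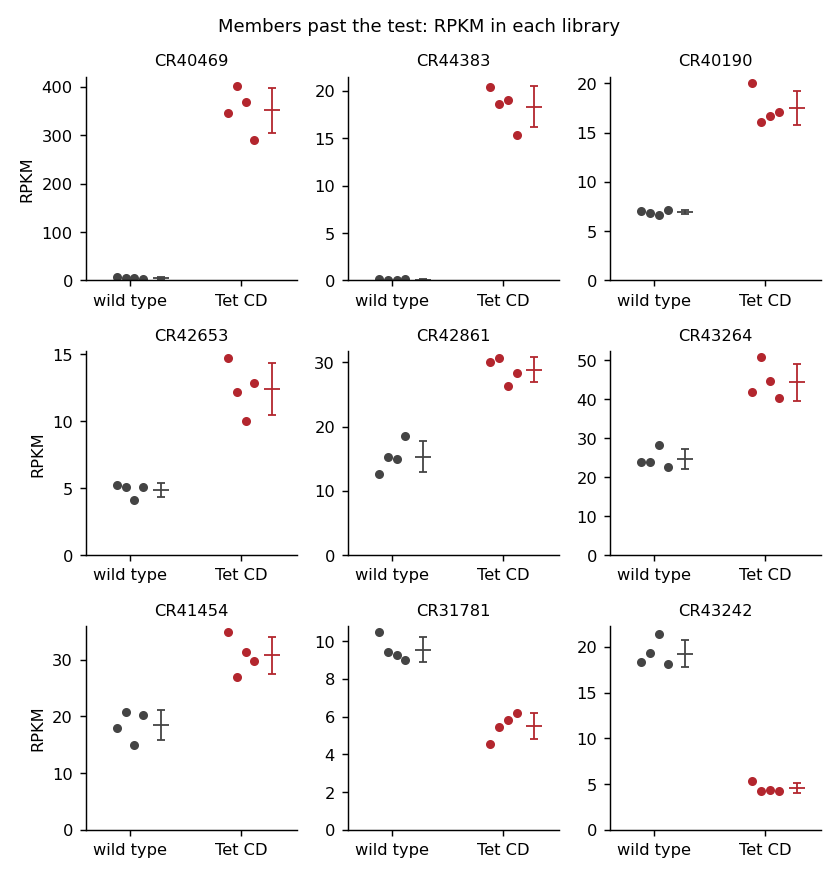
RPKM in each library (points), with the mean and SD of the 4 libraries of a group (bar), for the 9 members past the test, wild type in grey and Tet CD in red. In every panel the 4 Tet CD points lie wholly on one side of the 4 wild-type points.

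A further group of members stood lower in Tet CD without passing the test, and their Tet CD libraries disagreed. The largest uncalled differences belonged to CR43283, CR45102 and CR14578. CR43283 is lncRNA:cherub, known in flies as an RNA that dividing neuroblasts pass on unequally to their daughters and that tumors lacking Brat need to grow. It had 117, 108, 100 and 88.1 RPKM in wild type against 71.3, 33.2, 23.4 and 42.6 RPKM in Tet CD, or a log2 fold change of −1.38 (SE 0.28, limma adjusted p = 0.0189). The groups did not overlap, and the summed neuroblast markers given above did. Without Tet CD replicate 1 the value was −1.66 and passed the test (adjusted p = 0.00187).

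The CR45102 lncRNA, which begins 184 bases past Mnt on the same strand, had 54.6, 49.6, 44.1 and 34.8 RPKM in wild type against 32.8, 10.2, 9.96 and 24.8 RPKM in Tet CD (fitted log2 fold change −1.38 with SE 0.36, limma adjusted p = 0.0453). Mnt, a bHLH partner of Max, had 22.7, 23.3, 24.9 and 21.6 RPKM in wild type against 16, 5.84, 5.98 and 13.5 RPKM in Tet CD (fitted log2 fold change −1.26 with SE 0.30, limma adjusted p = 0.0323). In both genes replicates 2 and 3 of Tet CD were the lowest libraries. CR14578, a pseudogene that resembles bcd over 912 bases at 96.9% identity, had 11.7, 9.73, 7.27 and 6.5 RPKM in wild type against 5.6, 1.62, 3.69 and 5.53 RPKM in Tet CD (fitted log2 fold change −1.09 with SE 0.33, limma adjusted p = 0.0676). Unlike most of the pseudogenes it stood far above its relative, since bcd, the maternal anterior determinant, had 0.12 and 0.0688 RPKM as group means.

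The abundant lncRNA CR31451 (lncRNA:mimi) also had its lowest values in replicates 2 and 3 of Tet CD, with 139, 133, 122 and 114 RPKM in wild type against 105, 48.9, 75.4 and 114 RPKM in Tet CD (fitted log2 fold change −0.63 with SE 0.23, limma adjusted p = 0.11). In all, 15 members (18.8%) had their 2 lowest values in replicates 2 and 3 of Tet CD, close to the 17% of all genes averaging at least 5 RPKM. Replicate 2 of Tet CD alone was the lowest library for 29 members (36.2%), against 26.1% of those genes. The 9 members with 3146 or more bases of exon had a median log2 fold change of −0.38, and none of them passed the test. An unadjusted p below 0.05 from limma was found for 3 of them, where 28.3% of all genes tested had one. The 9 include the 3 copies of PlexB described below, at −0.38, −0.38 and −0.21, which are not separate cases. The neuron markers summed to 378, 247, 311 and 377 RPKM in Tet CD, and Tet was low in the same libraries, as given above. The part of both in these values was not tested.

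**Figure D4:**
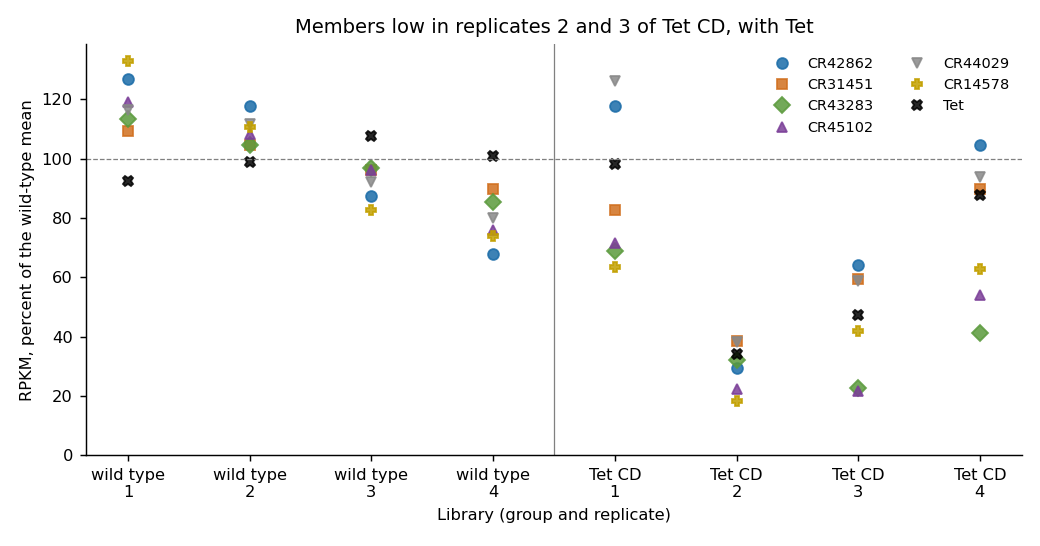
Level in each library as a percentage of the wild-type mean for 6 members chosen after their values were seen, with Tet in black, the wild-type mean as a dashed line. Tet CD replicates 2 and 3 are the lowest for all 6 members and for Tet, and CR43283 is low in replicate 4 of Tet CD as well.

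Most pseudogene members could be set beside the gene they resemble. At least 50% of the exon bases aligned to a protein-coding gene for 29 of the 36, with an identity of 99% or more for 13. For 26 of these the coding gene is in the table, which gives 17 genes, of which 14 could be tested and 1 rose and 1 fell. In 17 of the 26 pairs the pseudogene stood lower than the gene. An alignment of at least 150 bases at 95% identity or more elsewhere in the genome was found for 32 of the 80 members, namely 30 pseudogenes, the lncRNA CR40469 and the hairpin RNA CR32207. Of these 32, 4 rose (12.5%) and none fell, and of the other 48, 3 rose (6.25%) and 2 fell (4.17%). Over all genes tested 1.16% rose and 1.35% fell. These counts rest in part on the level rule. CR40469 and CR42653 among the 32, and CR44383 and CR43242 among the 48, are members through 1 group alone. Pairs named below apart from those above were chosen after their values were seen.

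**Figure D5:**
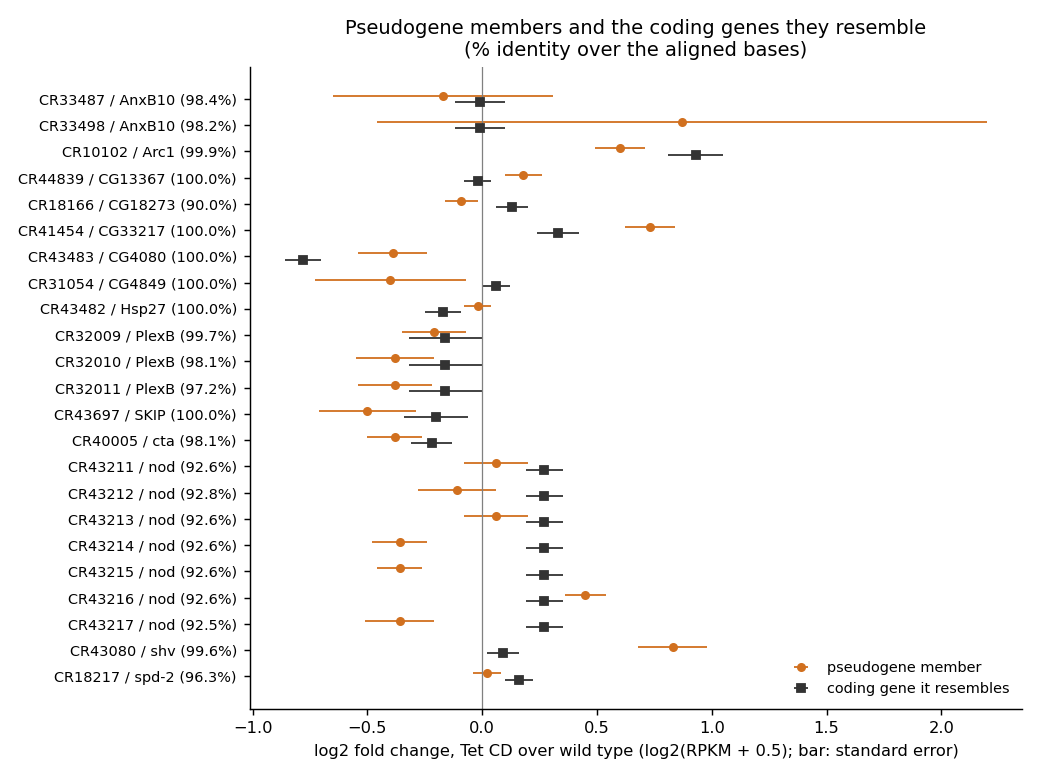
Log2 fold changes between Tet CD and wild type (log2(RPKM + 0.5) scale, bars are standard errors) for pseudogene members in orange and the tested coding gene each resembles in black, with the identity over the aligned bases. CR10102 and Arc1 both lie above 0 and CR43483 and CG4080 both below it, while CR41454, CR43080 and most copies of nod lie away from their relatives.

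The gene that rose was Arc1, which makes a capsid-like protein derived from a retrotransposon. Arc1 was at 34.7, 28.5, 36.7 and 40.5 RPKM in wild type against 58, 71.7, 78.5 and 61.9 RPKM in Tet CD (fitted log2 fold change 0.93 with SE 0.12, limma adjusted p = 0.002). CR10102, which lies 135 bases from it and matches it at 99.9% of 1335 bases, was at 19.2, 18.7, 22.5 and 24.1 RPKM in wild type against 27.3, 36.4, 35.4 and 30.3 RPKM in Tet CD (fitted log2 fold change 0.60 with SE 0.11, limma adjusted p = 0.0129). Both had groups that did not overlap, but the pseudogene missed the threshold.

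The gene that fell was CG4080, from 40.4, 37.9, 41.6 and 41.8 RPKM in wild type to 21.2, 22.5, 22.5 and 27.5 RPKM in Tet CD (fitted log2 fold change −0.78 with SE 0.08, limma adjusted p = 0.000526). All 467 bases of CR43483 are identical to it, and CR43483 had 30.6, 25.2, 23.5 and 22.4 RPKM in wild type against 15.9, 21.2, 16.2 and 24.8 RPKM in Tet CD (fitted log2 fold change −0.39 with SE 0.15, limma adjusted p = 0.132). Its groups overlapped, unlike those of CG4080. CR43483 and CR43482, the copy of Hsp27, meet at 1 shared base on 3L, 363 bases from CG4080.

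The CR43080 pseudogene had 37.7, 41.2, 23.4 and 34.1 RPKM in wild type against 60.4, 58.5, 63.6 and 56.2 RPKM in Tet CD (fitted log2 fold change 0.83 with SE 0.15, limma adjusted p = 0.0117). Its groups did not overlap. It passed the test without wild-type replicate 3 (log2 fold change 0.66, adjusted p = 0.00309) and after removing the exon-length trend (adjusted p = 0.00932). The gene shv, to which it is 99.6% identical over 452 bases, had 70.8 ± 1.65 and 75.7 ± 7.24 RPKM (SD, n = 4) in wild type and Tet CD.

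The nod copies did not move as one. The gene nod itself had 7.38, 8.67, 8.49 and 8.81 RPKM in wild type against 10.1, 9.64, 10.7 and 10 RPKM in Tet CD (fitted log2 fold change 0.27 with SE 0.08, limma adjusted p = 0.0623). Among the 7 copies the log2 fold changes ran from −0.36 to 0.45 and none passed the test. An unadjusted p below 0.05 from limma was found for 4 of them, where 28.3% of all genes tested had one. The 7 copies have only 4 distinct exon sequences, so these p-values are not separate cases. CR43216 had 5.73, 5.97, 5.02 and 4.84 RPKM in wild type against 7.43, 7.15, 7.82 and 7.62 RPKM in Tet CD, without overlap (log2 fold change 0.45 with SE 0.09, limma adjusted p = 0.0166). CR43211, whose exons are identical to those of CR43216, had 11.4, 10.3, 8.31 and 7.71 RPKM in wild type against 9.54, 8.15, 9.55 and 12 RPKM in Tet CD (fitted log2 fold change 0.06 with SE 0.14). CR43214, which has another sequence, had 19.5, 17.4, 17.4 and 15.5 RPKM in wild type against 14.5, 10.6, 13.6 and 15.5 RPKM in Tet CD (fitted log2 fold change −0.36 with SE 0.12, limma adjusted p = 0.0837). How the counting gave exon reads to identical copies is not given in the sources used here, so values of single copies are uncertain.

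No member of the other small families passed the test. The PlexB copies CR32009, CR32010 and CR32011 on chromosome 4, up to 99.7% identical to this semaphorin receptor gene, had wild-type means of 18.4, 18.3 and 23.3 RPKM and Tet CD means of 16.1, 14.3 and 18.2 RPKM, beside 55.2 ± 2.44 and 50.7 ± 13.1 RPKM (SD, n = 4) for PlexB. The copies of mRpS5, a mitochondrial ribosomal protein gene not analysed here, were CR41597, CR42722 and CR42723, with wild-type means of 29.9, 35.2 and 35.5 RPKM and Tet CD means of 31.7, 39.1 and 39.3 RPKM. Of these 6, 1 had an unadjusted p below 0.05 from limma, where 28.3% of all genes tested had one. CR45548 had 5.37 ± 1.28 and 5.97 ± 0.991 RPKM (SD, n = 4), whereas CG4884, to which its 321 bases are identical, was listed at 0 in all libraries.

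The spread between libraries of a group was described by the coefficient of variation. Its median over the members was 11.9% in wild type and 15.6% in Tet CD, against 5.33% and 9.47% for all genes tested that averaged at least 5 RPKM. Values ran from 1.5 to 134% in wild type and from 2.26 to 91% in Tet CD, and 3 members in wild type and 4 in Tet CD were above 50%. The most variable was CR33498, at 0.93, 7.74, 23.7 and 0.249 RPKM in wild type against 27.4, 14, 0.147 and 8.65 RPKM in Tet CD. It and CR33487, which lie at chrX:20225137-20226111 and chrX:20194360-20195360, are 98.2% and 98.4% identical to the annexin gene AnxB10, in the region of the Sdic genes, which arose by fusion of AnxB10 with a dynein intermediate chain gene. CR33498 is also identical to the pseudogene CR46274 over 501 bases, and CR33487 to the pseudogene CR33491 over 501 bases. The copy search found 7 copies of each elsewhere in the genome. A read from bases that are identical between copies cannot be placed by its sequence, so the values of CR33498 and CR33487 are uncertain. CR33487 had 2.95, 4.99, 10.2 and 5.61 RPKM in wild type against 10.1, 4.77, 1.62 and 5.95 RPKM in Tet CD. Both were highest in replicate 3 of wild type and in replicate 1 of Tet CD and lowest in replicate 3 of Tet CD within their groups, while AnxB10 itself had 47.9 ± 4.29 and 47.8 ± 7.21 RPKM (SD, n = 4).

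Among the pseudogenes with other relatives, those identical to part of a gene stood well below it. CR43697, identical to SKIP over 504 bases, had 7.31 to 10.5 RPKM in wild type against 4.01 to 8.09 RPKM in Tet CD, beside 28.8 to 32.2 and 19.9 to 33.2 RPKM for SKIP. CR31054 had means of 9.13 and 6.88 RPKM beside 41.7 and 43.5 RPKM for CG4849, to which 473 bases are identical, and CR44839 had 7.58 and 8.62 RPKM beside 26.4 and 26 RPKM for CG13367, with 359 identical bases. CR40005, a copy at 98.1% identity of cta, which encodes a G protein subunit needed for cell shape change at gastrulation, had 25 ± 3.84 RPKM in wild type against 19.1 ± 2.08 RPKM in Tet CD (SD, n = 4), where cta had 54.1 ± 4.19 and 46.6 ± 5.47 RPKM. CR18217 was instead above its relative, with 21.9 and 22.2 RPKM beside 14.5 and 16.3 RPKM for spd-2, a centrosome gene it matches at 96.3% of 1472 bases. None of these pseudogenes or genes passed the test.

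Further members were higher in every Tet CD library without passing the test, and were chosen after their values were seen. The nearest to the threshold was CR44268, a spliced lncRNA of 205 bases near the centromere of 2L, with 6.98, 10, 8.12 and 8.53 RPKM in wild type against 14.7, 11.6, 13.2 and 15.1 RPKM in Tet CD (fitted log2 fold change 0.67 with SE 0.12, limma adjusted p = 0.0105). CR46064, a lncRNA of 1 exon that shares 735 exon bases with a gene on the other strand, had 7.2 to 9.23 and 11.1 to 11.9 RPKM (log2 fold change 0.44, adjusted p = 0.0144 from limma). CR15345, an X-linked pseudogene for which no copy and no coding relative was found, had 4.53 to 6.32 and 7.73 to 8.31 RPKM (log2 fold change 0.50, adjusted p = 0.0179 from limma). The lncRNAs CR45242 and CR43685 differed by less, with log2 fold changes of 0.31 and 0.14 and adjusted p of 0.0865 and 0.134 from limma.

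Further long lncRNAs and both antisense RNAs did not pass the test. All but CR46003 and CR43971 were chosen after their values were seen, and CR43283 and CR42862, also long, are described above. CR46003, with 21024 bases in a single exon, had 3.99 to 6.42 RPKM in wild type against 3.01 to 9.8 RPKM in Tet CD, and CR46006, with 10235 bases, had 8.73 to 9.74 and 6.52 to 11 RPKM. CR45223, with 6258 bases, had 5.77 to 8.79 and 3.3 to 7.41 RPKM (log2 fold change −0.49 with SE 0.21, limma adjusted p = 0.161). The antisense RNA CR44029, with 5379 bases on chromosome 4, had 15, 14.4, 11.9 and 10.3 RPKM in wild type against 16.3, 4.93, 7.6 and 12.1 RPKM in Tet CD, and the antisense RNA CR43971 had 7.97, 7.89, 4.75 and 3.45 RPKM and 5.85, 2.03, 3.94 and 5.48 RPKM. The groups overlapped for each of these lncRNAs and antisense RNAs.

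Noncoding RNAs that carry a name and no CR number were taken as a list for comparison. Of 24 listed, 21 were in the table and 15 were tested. None passed limma's test, where 1.16% of all genes tested rose and 1.35% fell. An unadjusted p below 0.05 from limma was found for 6 of the 15, where 28.3% of all genes tested had one. The male-specific roX1 had 148, 235, 130 and 119 RPKM in wild type against 213, 137, 167 and 197 RPKM in Tet CD, a level reached by only 3 of the 80 members as a mean. The nervous system RNA noe had 101 and 102 RPKM as group means. Uhg4, a host of small nucleolar RNAs, had 27.6 to 33.2 RPKM in wild type against 35.4 to 37.3 RPKM in Tet CD (fitted log2 fold change 0.24 with SE 0.06, limma adjusted p = 0.043), and pncr009:3L, a hairpin RNA, had 5.14 to 7.14 and 7.94 to 9.62 RPKM (log2 fold change 0.41 with SE 0.11, limma adjusted p = 0.0514). Uhg1 was lower without overlap, with 33.7 to 41.7 RPKM in wild type against 29.1 to 33.3 RPKM in Tet CD (log2 fold change −0.24, limma adjusted p = 0.073). The other RNAs of the list with an unadjusted p below 0.05 overlapped between the groups, with log2 fold changes of 0.66 for RNaseMRP:RNA, 0.54 for Uhg8 and −0.44 for Uhg3.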

How the data were processed

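RNA was extracted with Trizol and libraries were made with a TruSeq RNA kit. The authors trimmed reads with Cutadapt, checked them with FastQC, mapped them to dm6 with HISAT2, counted them per gene with HTSeq-Count, and deposited RPKM values per gene and library made with Cufflinks. Settings for strand and for reads with several matches are not given in the sources used here. The table holds 4 further per-sample columns that matched no label and were not used. Since 1 read is worth a fixed amount of RPKM per gene and library, whole reads were worked out with exon lengths from Ensembl release 115 to give depth. Intervals cover counting error only.

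All genes that averaged 0.5 RPKM or more across 8 libraries (4 per group) were fitted on log2(RPKM + 0.5) with limma 3.58.1 in R 4.3.3 (lmFit, eBayes with a trend), which understates changes of low genes. A call needed a Benjamini-Hochberg adjusted p below 0.01 over all 9357 genes and a fold change above 1.2. Copies were searched with BLAST 2.17.0 (at least 150 bases at 95% identity or more), for the joined exons and each exon alone. Python 3.11.15, pandas 2.3.3 and matplotlib 3.10.9 made tables and figures, and the fit was tested on simulated data.

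Members and gene lists were chosen with earlier results of these data known. The text names the members called, the 10 highest, those nearest the level limit, the 3 largest uncalled differences, genes that overlap or neighbor called members, Tet and the listed noncoding RNAs, and other members, with their relatives or neighbors, were chosen after their values were seen. Alternatives were other pseudocounts and filters, median-of-ratios scaling, array weights, removal of the trend over exon length, the replicate number as a block, other thresholds, and leaving out each library.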

Additional observations from a re-analysis of the deposited data

Results flagged for a closer look

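In 48 groups of 4 libraries, those of the 23 members chosen by rule and of Tet, the highest or lowest library lay apart from the others of its group in 3, where chance gives about 1 in 20, or 2.4. CR43242 had 5.38 RPKM in replicate 1 of Tet CD and 4.22 to 4.38 RPKM in the others, all far below wild type. CR42653 had 4.13 RPKM in replicate 3 of wild type and 5.08 to 5.25 RPKM in the others. CR30009 had 51 RPKM in replicate 4 of Tet CD and 36.6 to 38.2 RPKM in the others.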

How the results depend on the processing

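The 7 rises and 2 falls became 14 and 14 with array weights, which put a weight of 6.32 on Tet CD replicate 3 and called 826 genes higher and 1024 lower over all genes (109 and 126 as reported), and 13 and 4 at an adjusted p below 0.05. They were 4 and 1 among members with at least 5 RPKM in both group means, 7 and 4 among CR-named genes that averaged at least 2 RPKM, and 5 and 1 at 10 RPKM or more. Counts over all genes are not given for an adjusted p below 0.05 or for these level limits, so these counts have no background beside them. Leaving out each library gave 6 to 8 rises and 1 to 3 falls, and a median log2 fold change of the members of −0.04 to 0.01. Over all genes the rises then ran from 52 to 205 and the falls from 71 to 203. With the replicate number as a block, 6 rose and 1 fell, and 51 and 60 over all genes. Correlations of deviations between libraries of the same number were 0.236, −0.186, 0.0398 and −0.105, so the numbers were not taken to pair the libraries. Under the block CR41454 and CR31781 missed the threshold (adjusted p = 0.0246 and 0.0213 from limma). Over 23 named members and 17 alternatives, 359 values kept direction and call, 12 lost the call, 11 gained it and 9 changed sign. CR42491 had 0.02 with array weights and 0.03, 0.00 and 0.04 without Tet CD 4, wild type 1 and wild type 4, and CR30009 had 0.01 and 0.03 without Tet CD 3 and wild type 3 (−0.15 to 0.03 over each library left out). CR46003 had −0.07 with array weights and −0.10 without Tet CD 4 (−0.10 to 0.41), and CR45548 had −0.08 with array weights. None of these 4 was called. CR44383 ranged from 4.18 to 6.94 over the alternatives, since it was at or near 0 in wild type. The cause of the other changes was not tested. Few reads lay behind CR44383 (0 or 1) and CR40469 (12 to 37) in wild type, and reads that match several copies limit the pseudogenes.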
